A study of Saccharomyces cerevisiae with 6 samples.

Results

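Of the 7102 binding clusters of the replicative helicase Rrm3 mapped in sac3Δ cells of Saccharomyces cerevisiae, 332 were at least 1000 bp long and shared 0 bp with every cluster of Thp1 and of Sac3, the subunits of the TREX-2 complex analyzed in this study. These wide, free clusters are described here. They made up 4.67% of the Rrm3 list (95% Wilson interval 4.21 to 5.19%) and 23.4% of its 1416 clusters of at least 1000 bp (21.3 to 25.7%). Free clusters of any length made up 67.9% of the list. The wide free clusters were chosen by their length and by the bases shared with both other lists, so these shares define the set and are not findings about it. The intervals given throughout cover counting error alone, while clusters close to each other are not independent.

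Rrm3 is a DNA helicase that moves with the replication fork and helps it pass proteins bound tightly to DNA, such as those at tRNA genes, at the fork barriers of the ribosomal DNA, at centromeres and at telomeres. The study takes accumulation of Rrm3 on the DNA as a sign of impaired replication, and so reads Rrm3 clusters as a map of obstacles. It also mapped Rrm3 in wild-type cells, with which the clusters described here were not compared. TREX-2 couples transcription to mRNA export and brings transcribed genes to the nuclear pore, with Sac3 as its scaffold and Thp1 as part of the module that binds RNA. A wide Rrm3 cluster without Thp1 or Sac3 is therefore a long stretch with Rrm3 enrichment for which no binding of either subunit was called.

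ChIP-chip, in which chromatin is pulled down with an antibody and the DNA in it is located with the probes of a tiling microarray, was carried out with asynchronous cultures in rich YPD medium and the anti-FLAG antibody M2, with input DNA of the same strain as the reference. Rrm3 was tagged in strain S3RBb-5B, which lacks SAC3 (sac3::KanMX) and BAR1 (bar1Δ) and carries ura3::URA3/GPD-Tk(7x). Thp1 was tagged in strain THP1-FLAG and Sac3 in strain SAC3-FLAG, with the tags marked by KanMX and no deletion of SAC3, BAR1 or THP1 in their listed genotypes. All of them were MATa with the same mutant allele of LEU2 and the alleles trp1-1, ade2-1, his3-11,15 and can1-100, and the strains with tagged Thp1 or Sac3 also carried ura3-1. Thus Thp1 and Sac3 were mapped in cells that carry SAC3, and Rrm3 in cells without this scaffold, so that the lists describe different strains. There was 1 list per protein. The 2 repetitions of Rrm3 in sac3Δ cells were taken to stand in 1 list, and the 2 samples of Rrm3 in thp1Δ cells were not used here. Without replicate lists, the spread of any value between replicates is not known, and no difference between groups of clusters was tested.

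The lists held 2485 Thp1 and 2282 Sac3 clusters, and after joining those that overlapped, 2785 regions bound by Thp1 or Sac3. They covered 11.2, 11.1 and 43.3% of the genome span for Thp1, Sac3 and Rrm3. The span of each chromosome ran from its first base to the highest cluster end in any list, 12069093 bp in all. Neither a signal nor a P-value stands beside the positions, and the genome build is not named. For this reason no gene, centromere, origin or sequence was set beside the clusters.

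The lengths of the wide free clusters lay mostly near the minimum. Their lengths ran from 1000 to 3300 bp, with a median of 1255.5 bp (interval 1215 to 1299 bp, from order statistics) and quartiles of 1112.75 and 1504.5 bp. Of the 332, 164 measured less than 1250 bp, 84 measured 1250 to 1500 bp, 63 measured 1500 to 2000 bp, 19 measured 2000 to 3000 bp and 2 were longer. The 1084 wide Rrm3 clusters that shared DNA with Thp1 or Sac3 had a median of 1605.5 bp and reached 38099 bp. Of these, 108 were at least 3500 bp long, a length at which 0 wide free clusters were found. Together the wide free clusters measured 455991 bp, which was 3.78% of the span and 8.72% of all bases in Rrm3 clusters. The wide clusters that shared DNA with Thp1 or Sac3 held 45.4% of those bases.

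Across all lengths, the share of Rrm3 clusters free of Thp1 and Sac3 fell with length. It was 95.7% for clusters under 300 bp (2083 of 2176), 51.2% from 750 to 1000 bp (341 of 666), 38.8% from 1000 to 1250 bp (164 of 423), 20.5% from 1500 to 2000 bp (63 of 307) and 1.14% at 3000 bp or more (2 of 176, interval 0.312 to 4.05%). A longer cluster has more bases with which to meet another list, so that a fall of this kind is built into the count, and it was not tested. Among free clusters 115 fell short of this length by up to 100 bp and 74 exceeded it by less than 100 bp. The longest free clusters left out measured 997, 997 and 996 bp, and the 3 shortest kept measured 1000 bp each.

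**Figure D1:**
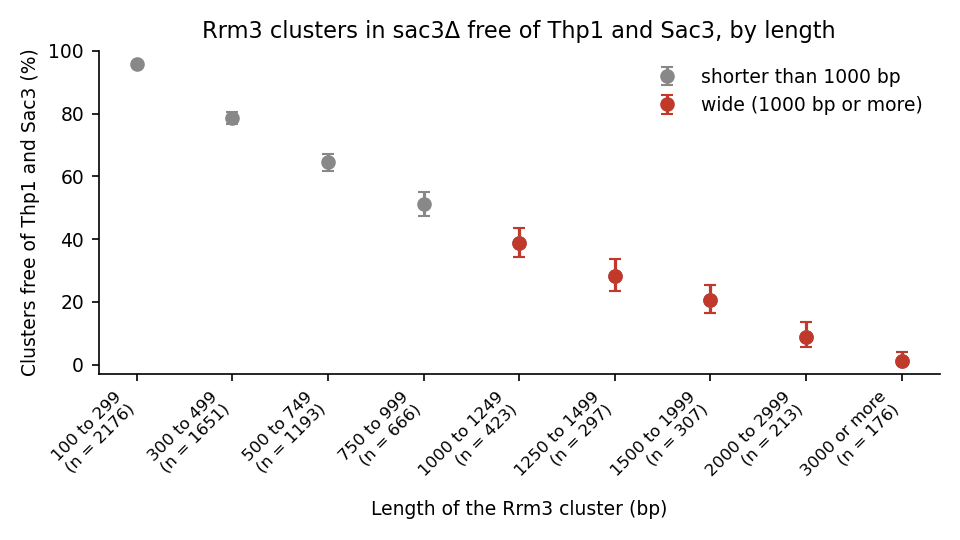
Share of Rrm3 clusters in sac3Δ cells that shared 0 bp with Thp1 and Sac3 (y axis, percent) by cluster length (x axis, bp, with the number of clusters). Points are shares and bars 95% Wilson intervals. The share falls from 95.7% under 300 bp to 1.14% at 3000 bp or more, and the wide clusters in red hold the 332 described here.

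The 5 longest wide free clusters lay on chromosomes XII, XVI, XI and XIII. Positions are those of the lists, counted from 1. The longest, of 3300 bp, ran from 63788 to 67087 on chromosome XII, with 5081 bp to the nearest Sac3 cluster and 11990 bp to the nearest Thp1 cluster. The second, of 3270 bp, ran from 622308 to 625577 on chromosome XVI, and its nearest Thp1 cluster was 706 bp away, whereas the nearest Sac3 cluster was 10284 bp away. Hence for this cluster Thp1 and Sac3 differed in what lay next to it. The third, from 752604 to 755553 on the same chromosome, measured 2950 bp and lay 991 bp from Thp1 and 1437 bp from Sac3. The fourth, from 511170 to 514044 on chromosome XI, measured 2875 bp, at 1743 bp from Thp1 and 1723 bp from Sac3. The fifth, from 917289 to 920122 on chromosome XIII, measured 2834 bp and was at the same time the wide free cluster closest to a chromosome end, at 4070 bp.

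Wide free clusters were found on all 16 chromosomes, at 27.5 per Mb in all. Chromosome IV stood lowest, with 16 clusters or 10.4 per Mb. On the other 15 chromosomes the density ran from 15.8 per Mb on chromosome III (5 clusters) to 46.5 per Mb on chromosome XIII (43 clusters), with a median of 28.1. Chromosomes I, XI and VI followed chromosome XIII at 39.1, 39.0 and 37.1 per Mb, from 9, 26 and 10 clusters. Counting wide Rrm3 clusters of either kind, chromosome IV had 104 per Mb, against 102 to 174 with a median of 117 on the other 15, of which 2 lay below it. Of its 160 wide clusters 16 were free (10%, interval 6.25 to 15.6%), against 25.2% (22.8 to 27.6%) on the other chromosomes, and against 35.0% (27.1 to 43.7%) on chromosome XIII. The 16 clusters on chromosome IV were 1002 to 1962 bp long, with a median of 1160 bp against medians of 1190 to 1402 bp elsewhere.

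The low number on chromosome IV moved with the Thp1 list. When only Sac3 clusters had to be absent, chromosome IV had 50 wide free clusters or 32.6 per Mb, within the range of 15.8 to 49.8 on the others. When only Thp1 clusters had to be absent, it had the same 10.4 per Mb as with both lists, below the range of 22.1 to 59.3. On this chromosome 34 wide Rrm3 clusters touched Thp1 but not Sac3, and 0 touched Sac3 but not Thp1. On each of the others 0 to 8 touched Thp1 alone, and 0 to 12 touched Sac3 alone. The 34 clusters shared between 109 and 1102 bp with Thp1, with a median of 295 bp. The Thp1 list held 476 clusters on chromosome IV and the Sac3 list 284, and with 1 array per protein, a difference in binding and a difference between the arrays cannot be told apart. With only those Thp1 and Sac3 clusters counted that measured at least 300 bp, chromosome IV had 39.8 wide free clusters per Mb, above 1 of the other chromosomes in a range of 34.8 to 87.0. Without chromosome IV there were 316 wide free clusters, at 30.0 per Mb.

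**Figure D2:**
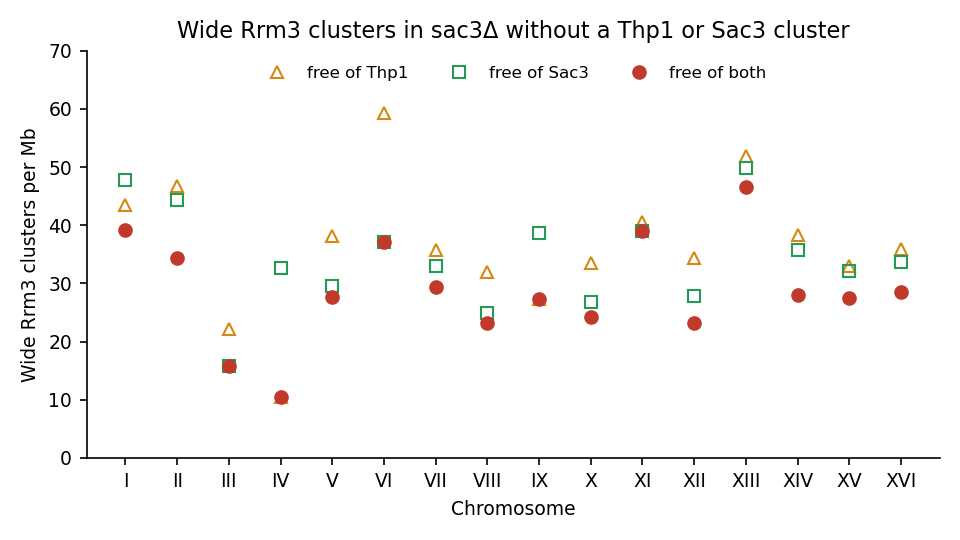
Wide Rrm3 clusters per Mb of chromosome span (y axis) on each of the 16 chromosomes (x axis), for clusters free of Thp1 (triangles), free of Sac3 (squares) and free of both (red circles), with 1 list per protein and no replicates. On chromosome IV the circle and the triangle lie at 10.4 per Mb, below all others, and the square lies at 32.6, among the others.

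Over the whole genome, either list alone left a similar number of wide clusters free, 415 for Thp1 and 413 for Sac3. Of the 1416 wide clusters, 920 touched both proteins, 81 Thp1 alone and 83 Sac3 alone. These near-equal totals include chromosome IV, where 16 wide clusters were free of Thp1 and 50 free of Sac3. On the other chromosomes 47 touched Thp1 alone and 83 Sac3 alone. Clusters that touched both shared a median of 1146 bp with the lists, summed over Thp1 and Sac3. Those that touched Thp1 alone shared a median of 178 bp, and those that touched Sac3 alone 198 bp. The wide cluster that came closest to being free shared 41 bp with Thp1. It ran from 721915 to 723067 on chromosome XII, and the next 4 shared 106 to 109 bp. Only this 1 shared 100 bp or less with the list it overlapped more, and 283 of the 1084 shared 300 bp or less, the stated resolution of the array. Extending the Thp1 and Sac3 clusters by 300 bp on each side left 329 of 332 wide clusters free. The calling of clusters limited what this extension could change, since Rrm3 clusters lay at least 251 bp apart. For 327 of the 332 the nearest Thp1 or Sac3 region shared DNA with another Rrm3 cluster.

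The wide free clusters were spread along the chromosomes rather than gathered in 1 place. In 112 windows of 100 kb there were 0 to 9 per window, with a median of 3, and 9 windows had 0. Of those 9 windows 6 were among the 15 on chromosome IV, where no window had more than 3. The window with the most, from 400001 to 500000 on chromosome XIII, held 9 wide free clusters, beside 3 wide clusters that touched Thp1 or Sac3. In the same window 13 Thp1 and 8 Sac3 clusters began. The next window in order, from 800001 to 900000, lay on the same chromosome and held 8.

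Within the densest window some of the wide free clusters lay next to each other in the Rrm3 list. The first 5 ran from 416324 to 417353, 419865 to 420970, 421893 to 422897, 423704 to 425561 and 426098 to 427097, and measured 1030, 1106, 1005, 1858 and 1000 bp. They followed each other in the Rrm3 list with no other cluster between them, separated by gaps of 2511, 922, 806 and 536 bp. Apart from this run of 5 there were 20 pairs of neighboring wide free clusters, and 287 wide free clusters had none beside them. The other 4 of the window ran from 443578 to 444641, 450183 to 451335, 463449 to 464638 and 465921 to 467393, with lengths of 1064, 1153, 1190 and 1473 bp. Those from 463449 and 465921 were neighbors in the Rrm3 list, while those from 443578 and 450183 had no wide free cluster beside them. The one from 450183 to 451335 lay 8326 bp from Thp1 and 18746 bp from Sac3, the largest distance to Sac3 among all 332.

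The gaps that separated wide free clusters from the Rrm3 clusters next to them had a median of 737 bp (interval 681 to 813 bp, 640 gaps, each counted once) and ran from 252 to 5199 bp. Short free clusters, those under 1000 bp, had a median gap of 735 bp (718 to 754 bp), and wide clusters that touched Thp1 or Sac3 one of 662 bp (625 to 685 bp). On this measure, which the choice of clusters did not use, the interval of the wide free clusters held that of the short free clusters. It overlapped that of the wide touching clusters only from 681 to 685 bp, and neither of these medians lay in the interval of the other. A gap between clusters of different kinds counted for each, and no difference was tested. Gaps of 250 bp or less were closed when clusters were called, and the smallest gap in each list was 251 bp.

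The distance from a wide free cluster to the nearest Thp1 or Sac3 cluster, counted from edge to edge, had a median of 1725.5 bp (interval 1545 to 2090 bp) and quartiles of 912.75 and 3425.25 bp. It ran from 285 to 17043 bp. Within 300 bp lay 4 of the 332, within 1000 bp 100 (30.1%, interval 25.4 to 35.3%), within 2000 bp 180 (54.2%), within 5000 bp 278 (83.7%) and within 10000 bp 326 (98.2%). The 4492 short free clusters had a median of 1845.5 bp (1777 to 1912 bp), and 27.3% of them lay within 1000 bp and 97.4% within 10000 bp. The intervals of these medians overlapped.

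**Figure D3:**
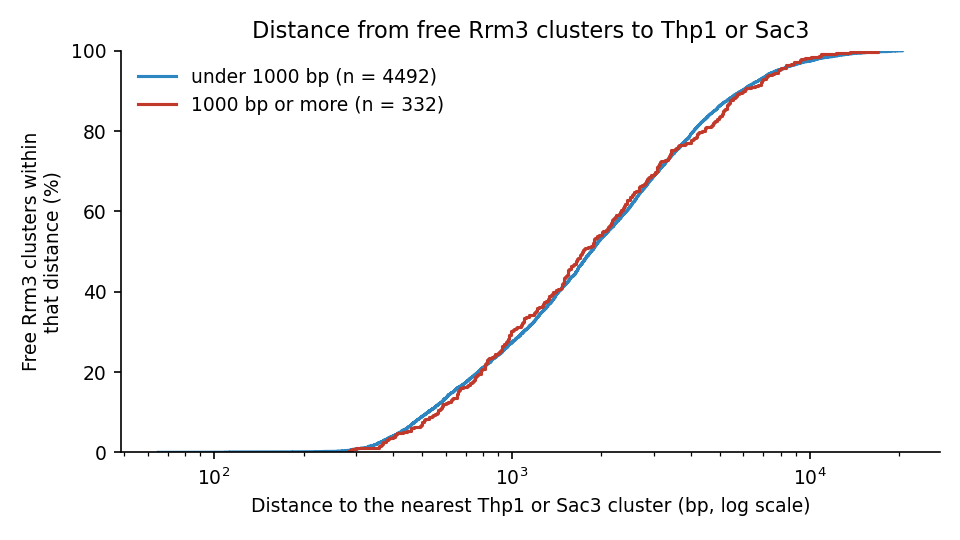
Cumulative share of free Rrm3 clusters (y axis, percent) whose nearest Thp1 or Sac3 cluster lies within a given distance (x axis, bp, log scale), for the 332 wide (red) and 4492 short (blue) free clusters. Each line has 1 step per cluster. The lines run close together, with medians of 1725.5 and 1845.5 bp.

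Measured from the midpoint, wide free clusters lay a median of 2470 bp from Thp1 or Sac3, and short free clusters 2043.5 bp. The midpoint of a cluster of at least 1000 bp cannot lie closer than about 500 bp to a cluster that it does not touch. Among all bases of the span at least 500 bp outside Thp1 and Sac3 clusters the median distance was 2060 bp. No test was made of this difference, to which the length asked of the wide clusters contributes by construction.

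Thp1 and Sac3 lay at similar distances from most wide free clusters. The median was 2112 bp to Thp1 and 2158.5 bp to Sac3. For 227 of the 332 (68.4%) these distances differed from each other by 300 bp or less, and for 27 they were equal. Sac3 was nearer in 167 cases (50.3%, interval 44.95 to 55.6%) and Thp1 in 138 (41.6%, 36.4 to 46.9%). Of the 16 clusters on chromosome IV, Thp1 was nearer to 15. Without that chromosome, Sac3 was nearer in 166 of 316 cases (52.5%, 47.0 to 58.0%) and Thp1 in 123 (38.9%, 33.7 to 44.4%). This difference was not tested. The nearest bound region held both proteins for 225 of the 332 clusters (67.8%), Thp1 alone for 60 and Sac3 alone for 47. Of all 2785 regions 68.0% held both, which is close to the share next to wide free clusters.

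In 327 of 332 cases (98.5%) that nearest region itself shared DNA with an Rrm3 cluster. Among all 2785 regions bound by Thp1 or Sac3 the share was 98.6% (2745 regions). Of the wide free clusters 164 (49.4%) had no neighbor in the Rrm3 list that touched Thp1 or Sac3, 133 had 1 and 35 had such a neighbor on each side. For the short free clusters the share with no such neighbor was 51.1%.

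The wide free clusters farthest from Thp1 and Sac3 lay on 5 different chromosomes. The farthest ran from 750420 to 751645 on chromosome XIV, 17043 bp from Sac3 and 18231 bp from Thp1. It was followed by 1 on chromosome XV from 359111 to 360438 at 13626 bp, and 1 on chromosome II from 350663 to 351857 at 12300 bp. The others lay on chromosome XIII from 571564 to 572598 at 10923 bp and on chromosome VI from 196823 to 197968 at 10772 bp. These 5 measured 1035 to 1328 bp, so that the clusters farthest from Thp1 and Sac3 were not among the longest.

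Wide free clusters were then placed in the stretches left between neighboring Thp1 or Sac3 regions. Of the 1978 such stretches of at least 1000 bp, 272 held 1 or more of them. These had a median length of 8405 bp, against 2939 bp for the 1706 without any. A stretch must hold a cluster of at least 1000 bp whole to be counted, so that this difference is partly built in. It was not tested. In 226 stretches there was 1 wide free cluster, in 35 there were 2, in 9 there were 3, and 1 stretch each held 4 and 5. Those of 1 stretch share their surroundings and are not independent of each other. The stretch with 5 ran from 407065 to 428999 on chromosome XIII, and the stretch with 4 from 441857 to 470061 on the same chromosome, so that both lay in the densest window. The third in order, from 726509 to 768688 on chromosome XIV, was the longest of all stretches, with 42180 bp, and held 3. In these 3 stretches Rrm3 clusters of any length covered 40.2, 39.7 and 25.7% of the bases.

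The share of stretches with a wide free cluster rose with their length, which also gives more room for one. It was 5.99% from 2 to 4 kb (32 of 534), 17.8% from 4 to 8 kb (95 of 533), 32.8% from 8 to 12 kb (66 of 201) and 51.4% at 16 kb or more (37 of 72, interval 40.1 to 62.6%). Per Mb of stretch, the numbers were 21.0, 33.8, 40.6 and 45.3, with 39.6 in the 92 stretches of 12 to 16 kb. A wide free cluster must fit whole in its stretch, so that this density is also lower in short stretches by construction. The rise was not tested. The median share of these stretches covered by Rrm3 clusters of any length was 37.1% at 2 to 4 kb and 29.1% at 16 kb or more. This share also counts parts of Rrm3 clusters that reach into a stretch from its edges, and cannot be set against that density. Long stretches were not all occupied, as the next 2 in length, of 40145 bp on chromosome XIII and 37629 bp on chromosome VIII, held 0 wide free clusters and 27 shorter Rrm3 clusters each.

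**Figure D4:**
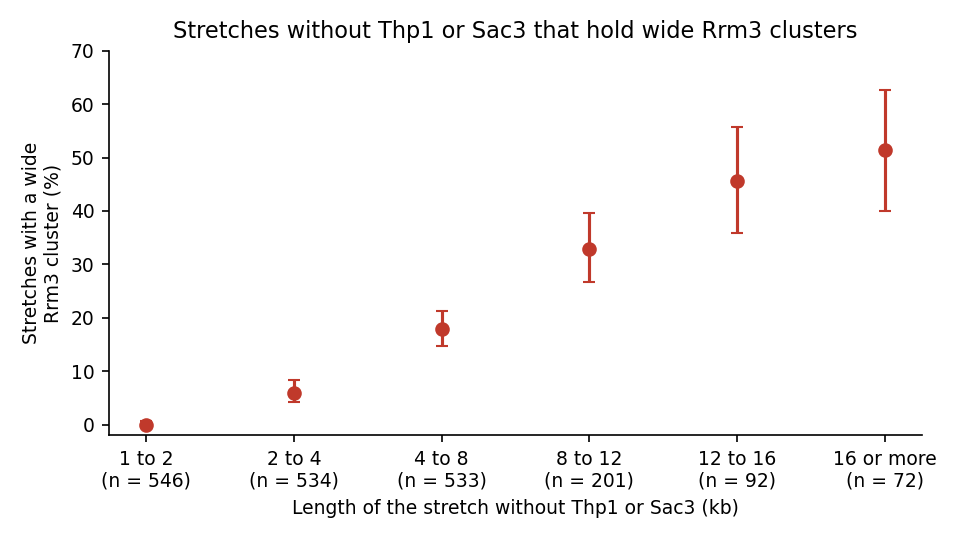
Share of stretches between neighboring Thp1 or Sac3 regions that hold at least 1 wide free Rrm3 cluster (y axis, percent) by length of the stretch (x axis, kb, with the number of stretches). Points are shares and bars 95% Wilson intervals. The share goes from 0 of 546 stretches of 1 to 2 kb, which have little room for a cluster of at least 1000 bp, to 51.4% at 16 kb or more.

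Within 20 kb of an end lay 6 of the 332 (1.81%, interval 0.831 to 3.89%), in windows that made up 5.30% of the span. This share rests on few clusters: it was 3.57% (1.22 to 9.98%) with a minimum length of 1500 bp, an interval that holds the share of the span, 3.24% (2.15 to 4.86%) when only Thp1 and Sac3 clusters of at least 300 bp were counted, and 1.04% (0.354 to 3.01%) without chromosome XIII. Of the wide clusters that touched Thp1 or Sac3, 77 of 1084 lay there (7.10%, 5.72 to 8.79%), and of the short free clusters 159 of 4492 (3.54%, 3.04 to 4.12%). Within 1 kb of an end there were 0 wide free clusters, which allows a share of up to 0.904% (3 counts of the total) or 1.14% (upper Wilson bound), and 30 wide clusters that touched Thp1 or Sac3. The paper reports Thp1 and Sac3 at most telomeres. Choosing clusters that share no DNA with them leaves little room for a wide free cluster there, and the bounds do not allow for this. Per Mb, the wide free clusters numbered 9.38 within 20 kb of an end, 31.3 from 20 to 50 kb, 36.9 from 50 to 100 kb, 31.2 from 100 to 200 kb, 24.7 from 200 to 400 kb and 24.5 beyond. The wide clusters that touched Thp1 or Sac3 were most dense within 20 kb, at 120.3 per Mb against 79.2 to 91.3 farther in.

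Thp1 and Sac3 clusters themselves covered 36.3% of the bases within 20 kb of an end, against 10.003 to 15.2% farther in, which leaves less room for a free cluster. Per Mb outside Thp1 and Sac3 clusters, the wide free clusters numbered 14.7 within 20 kb of an end and 27.7 to 41.5 in the other intervals. On this scale too the number within 20 kb was below the others, with 6 clusters behind it, and the difference was not tested. This scale does not allow for gaps between Thp1 and Sac3 clusters that are too short for a wide cluster. The short free clusters were also less dense there, at 248 per Mb of all bases within 20 kb of an end against 355 to 389 farther in. Since the outermost cluster of any list set the right end of each chromosome, distances to right ends depend on the lists. Some cluster thus reaches each right end by definition, which bears on the counts within 1 kb of an end.

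**Figure D5:**
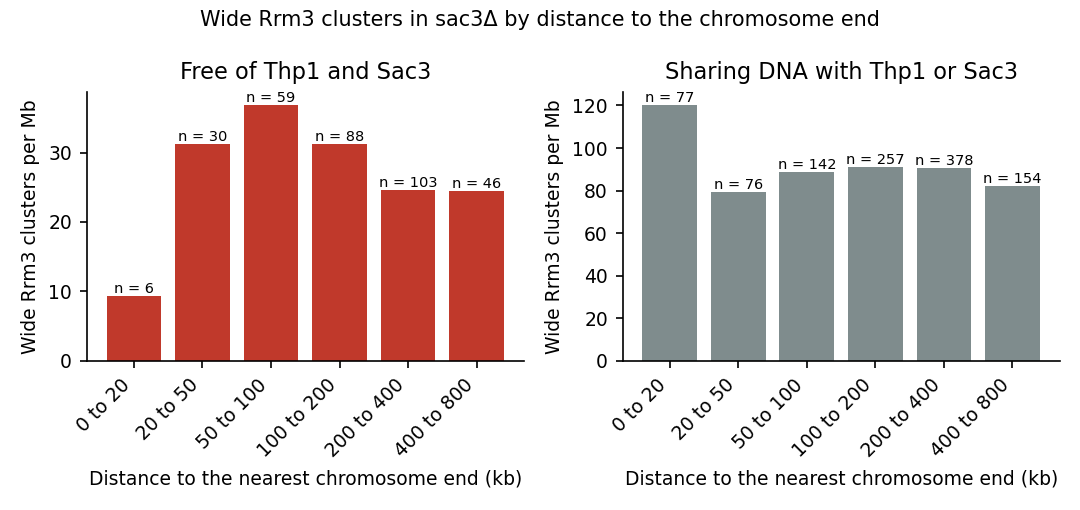
Wide Rrm3 clusters per Mb (y axes, which differ in scale) by distance to the nearest chromosome end (x axes, kb), for those free of Thp1 and Sac3 (left) and those that shared DNA with either (right). Bars are densities over the bases in each interval, with the number of clusters above them and no replicates. The free clusters are fewest within 20 kb, at 9.38 per Mb, and the others most dense there, at 120.3 per Mb.

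The 6 wide free clusters within 20 kb of an end lay on 4 chromosomes, and 3 of them on chromosome XIII. The nearest, at 4070 bp from the right end of chromosome XIII, was described above. The next was on the same chromosome from 913113 to 914256, 9936 bp from the end, with a length of 1144 bp and 1578 bp to Thp1. The third ran from 930963 to 933161 on chromosome XVI, 14868 bp from the end, measured 2199 bp and lay 1184 bp from both Thp1 and Sac3. At 5 of the 32 chromosome ends a wide free cluster lay within 20 kb. From the others it took up to 110862 bp, on the left of chromosome XI, to reach the first, and the median over the 32 ends was 39874.5 bp. Along the length of the chromosomes, each of 10 equal parts held between 24 and 44 of the 332 midpoints, with the fewest in part 8 and the most in part 9, counted from the left.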

How the data were processed

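ChIP-chip of FLAG-tagged Thp1, Sac3 and Rrm3 was read on Affymetrix tiling arrays. Per the methods, the authors called clusters from the output of the Tiling Array Suite where the IP/SUP signal was positive with P below 0.01 over runs of at least 100 bp, closing gaps of up to 250 bp. The 2 Rrm3 repetitions were normalized by quantiles. The deposited positions (chromosome, start and end) are the only values in the lists. The tool version and genome build are not given in the sources used here. The title of the Rrm3 list names sac3Δ.

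A wide free cluster is an Rrm3 cluster of 1000 bp or more, end minus start, with 0 bp in common with any Thp1 or Sac3 cluster. This set, its measures and its alternatives were chosen with earlier results of these data known. Starts were raised by 1 for printing. Distances are bases between edges. Shares carry 95% Wilson intervals and medians 95% intervals from binomial order statistics. Windows of 100 kb were counted from the left ends, without incomplete last windows. No test was made, and the number of arrays limits the precision. Regions were named as the 5 longest, the 5 farthest from Thp1 and Sac3, the 3 nearest to an end, the 3 stretches with the most wide free clusters (ties by length), and the densest window. Others (the clusters sharing the fewest bases, the next window, long stretches without a wide free cluster) were chosen after their values were seen. Overlaps and distances were tested on simulated data. Python 3.11.15, numpy 2.4.6, pandas 2.3.3, scipy 1.17.1 and matplotlib 3.10.9 were used. Alternatives changed the minimum length, the Thp1 and Sac3 clusters counted, the joining of Rrm3 clusters, the overlap allowed, and the chromosomes and ends included.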

Additional observations from a re-analysis of the deposited data

How the results depend on the processing

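The number and density of wide free clusters, their median length, their median distance to Thp1 or Sac3 and their share within 20 kb of an end were recomputed under alternatives, of which leaving out chromosome XIII, and all values on chromosome IV alone, were added after seeing the data. Of 72 recomputed values, 46 stayed within 1.5 times a count or density, or within the interval of a median or share, and 26 moved. The 46 include the values with Thp1 and Sac3 clusters extended by 300 bp, an alternative whose effect the calling of clusters limited. With a minimum length of 800 bp there were 575 clusters (47.6 per Mb, 26.8 on chromosome IV) with a median of 1043 bp, and with 1500 bp there were 84 (6.96 per Mb, 1.96 on chromosome IV) with a median of 1790.5 bp and a median distance of 1502.5 bp. With only Thp1 and Sac3 clusters of at least 300 bp, 678 were free (56.2 per Mb, 39.8 on chromosome IV), with a median length of 1303.5 bp and distance of 3696 bp. When Rrm3 clusters under 500 bp apart were joined, 602 were found (49.9 per Mb, 24.8 on chromosome IV), with medians of 1371.5 and 2147.5 bp. With up to 10% of the Rrm3 cluster shared, these medians were 1305 and 1375 bp. The median distance was 2100 bp for clusters free of Thp1 and 2147 bp for those free of Sac3, each to the same protein, and the latter numbered 32.6 per Mb on chromosome IV. The share near an end was 0.602% for 10 kb and 10.8% for 50 kb. These changes follow from which clusters each alternative lets in or which window it counts. Without chromosome XIII, the share within 20 kb of an end was 1.04%, since 3 of the 6 clusters there lie on it. This value stayed within those limits, as did the others recomputed without chromosome IV, XII or XIII, or without the clusters within 20 kb of an end. No paired analysis was possible because each protein had 1 list, and for the same reason no repetition could be left out. A stricter P-value could not be applied to lists without one.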
